A study of Mus musculus with 3 samples.

Results

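The integrated stress response was examined through 10 genes in mouse 3T3-L1 adipocytes, a fibroblast line that was turned into fat cells in the dish. The genes were chosen by name: Eif2ak1, Eif2ak2, Eif2ak3 and Eif2ak4, which encode the 4 kinases of the translation factor eIF2alpha; Ppp1r15a and Ppp1r15b, which encode subunits of its phosphatases; Atf4 and Ddit3, which encode transcription factors; and Trib3 and Asns, which are targets of ATF4. They are 10 of the 18194 genes with a probe set of their own on the mouse4302 Affymetrix array, and 25 of its 34958 such probe sets measured them. All 3 arrays came from adipocytes treated for 2 h with glucose oxidase, an enzyme that produces hydrogen peroxide from glucose and is used to cause oxidative stress and insulin resistance. The sources used here do not state its dose. Control arrays were not analysed here, so each value is a level after treatment, and the effect of the treatment itself was neither estimated nor tested. The 3T3-L1 line is a cultured model, and the sources do not say whether the replicates were separate cultures, so the spread between arrays may be technical.

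In this response, different stresses converge on phosphorylation of eIF2alpha, which lowers protein synthesis as a whole but favours translation of the Atf4 mRNA. ATF4 then activates genes for amino acid supply, tRNA charging and further transcription factors, among them DDIT3 (CHOP), and PPP1R15A returns eIF2alpha to its unphosphorylated state. Since kinase activity and ATF4 translation are set after transcription, mRNA levels of these genes do not measure whether the response is active.

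Of the 10 genes, all 10 were above background in the treated adipocytes, against 55.7% of all measured genes. Background was a log2 intensity of 7.50, the 95th percentile over 83 probe sets of chemosensory receptor genes (olfactory, vomeronasal, taste), which fat cells should lack, and a gene was above it if at least 1 of its probe sets exceeded it in each of the 3 arrays. This rule favours genes with more probe sets, so the comparison with all genes is uneven. Of the 25 probe sets, 18 were above background and 7 were not, while 46.5% of all probe sets of 1 gene were above background. Every probe set was above background for Eif2ak2, Ddit3, Trib3, Ppp1r15a and Asns, whereas each of the other 5 genes had probe sets on both sides. Log2 intensity depends on the probes as well as on the transcript, so levels of different probe sets do not rank transcripts, and a level is read here only against background and between arrays. The probe set with the highest mean stands for its gene below.

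The label of the cells was checked with lists of cell type markers. All 10 measured adipocyte markers were above background, such as the adiponectin gene Adipoq at 14.49 ± 0.03 (SD, n = 3). So were 6 of 8 preadipocyte and fibroblast markers, including Pdgfra and Dlk1, whereas Cd34 and Gata3 were not, at 5.49 and 5.75. Gata2 was near background at 7.76, and this count was 5 at the 99th percentile of the receptor genes. It was also 5 without probe sets of suffix s or x, which can bind other transcripts. The leading probe set of Dlk1 has the suffix s. The GEO tissue label names preadipocytes, while the growth protocol and the methods describe differentiated cells. Genes of both marker groups were above background here. Since 55.7% of all measured genes were too, the count of preadipocyte and fibroblast markers does not settle the state of the cells. Of 6 macrophage markers, Lyz2 and Csf1r were above background and Ptprc, Itgam, Adgre1 and Cd68 were not, and of 4 endothelial markers Kdr was and Pecam1, Cdh5 and Tek were not. Levels of the 10 genes cannot be divided between differentiated and undifferentiated cells.

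Matches to known response elements were searched in the RefSeq promoter windows of GRCm38.p6. These windows run from 250 bases before the annotated start site to 50 bases after it. Of the members, 9 had such a window and Eif2ak4 had 2, giving 10 windows. The C/EBP-ATF response element, through which ATF4 and C/EBP partners bind, was searched as TGATGNAA on both strands. It was found in 2 of the 10 windows, those of Asns and Trib3, and in 3.97% of all 32851 windows. The interferon-stimulated response element, the usual site of interferon-activated factors, was searched on both strands as GAAA, any pair of bases and GAAA. It was found in the windows of Eif2ak2 and Ppp1r15a and in 3.44% of all windows. The stretches are given on the strand of the gene, with the match in capitals, because they show which member holds which letters. A match is only a description of the sequence.
Asns, chr6:7693215-7693242, minus strand, match at -23 to -16: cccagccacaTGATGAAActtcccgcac
Trib3, chr2:152344029-152344056, minus strand, match at 15 to 22: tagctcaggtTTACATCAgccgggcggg
Eif2ak2, chr17:78882535-78882564, minus strand, match at 19 to 28: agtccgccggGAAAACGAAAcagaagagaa
Ppp1r15a, chr7:45526469-45526498, minus strand, match at -220 to -211: aaaataaaagGAAAGGGAAAtggcacggta

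All 4 eIF2alpha kinase genes were above background by the rule given, with Eif2ak4 nearest to it. Eif2ak3 and Eif2ak4 were so through only 1 probe set each. Eif2ak1 encodes HRI, a kinase known for sensing haem shortage and for relaying mitochondrial and oxidative stress. Its probe set 1421901_at had log2 intensities of 9.52, 9.49 and 9.59 in replicates 1, 2 and 3. The second, 1421900_at, gave 9.43, 9.52 and 9.40, and 1436006_at gave 8.30, 8.43 and 8.28. The last 2 were both highest in replicate 2, where 1421901_at was lowest, so the probe sets of Eif2ak1 did not order the arrays alike. Its remaining probe sets, 1430696_at and 1453902_at, had means of 5.88 and 5.40 and were not above background in any array.

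Eif2ak2 encodes PKR, which binds double-stranded RNA and is itself induced by interferon, and its probe sets differed in how far they varied between arrays. Probe set 1422005_at had log2 intensities of 8.19, 8.58 and 8.90 in replicates 1, 2 and 3, or 293, 383 and 479 on the linear scale. This is a range of 0.71 on the log2 scale, or 1.64-fold, and 99.9% of the 16246 probe sets above background had a smaller one. Probe set 1422006_at gave 8.51, 8.66 and 8.77, a range of 0.26. Both were lowest in replicate 1 and highest in replicate 3. The third probe set, 1440866_at, gave 9.21, 9.28 and 9.22, with a range of 0.07, and did not share this pattern. The range of 1422005_at was 0.32 without replicate 1, 0.71 without replicate 2 and 0.39 without replicate 3, and that of 1422006_at was 0.11, 0.26 and 0.15. The sources used here do not give the transcript regions that these probe sets detect.

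Eif2ak3 encodes PERK, the kinase of the endoplasmic reticulum that responds to unfolded proteins. Probe set 1449278_at gave 9.26, 9.31 and 9.31 in replicates 1, 2 and 3, which is 9.29 ± 0.03 (SD, n = 3). The other probe sets of Eif2ak3, 1453505_a_at and 1430371_x_at, were not above background, with means of 6.17 and 4.40. The first of these had a range of 0.44, but at a level where the signal cannot be told from that of receptor genes.

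Eif2ak4 encodes GCN2, which is activated by uncharged tRNA when amino acids are short. Probe set 1421389_a_at gave 7.81, 7.78 and 7.72, a mean only 0.27 above background on the log2 scale, and 1443235_at had a mean of 5.79 and was below background. Among the backgrounds tried, Eif2ak4 was thus the only member whose call depended on the choice. It was not above background with the 99th percentile of the receptor genes, at 8.05, or with keratin-associated and defensin genes, at 7.91.

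**Figure D1:**
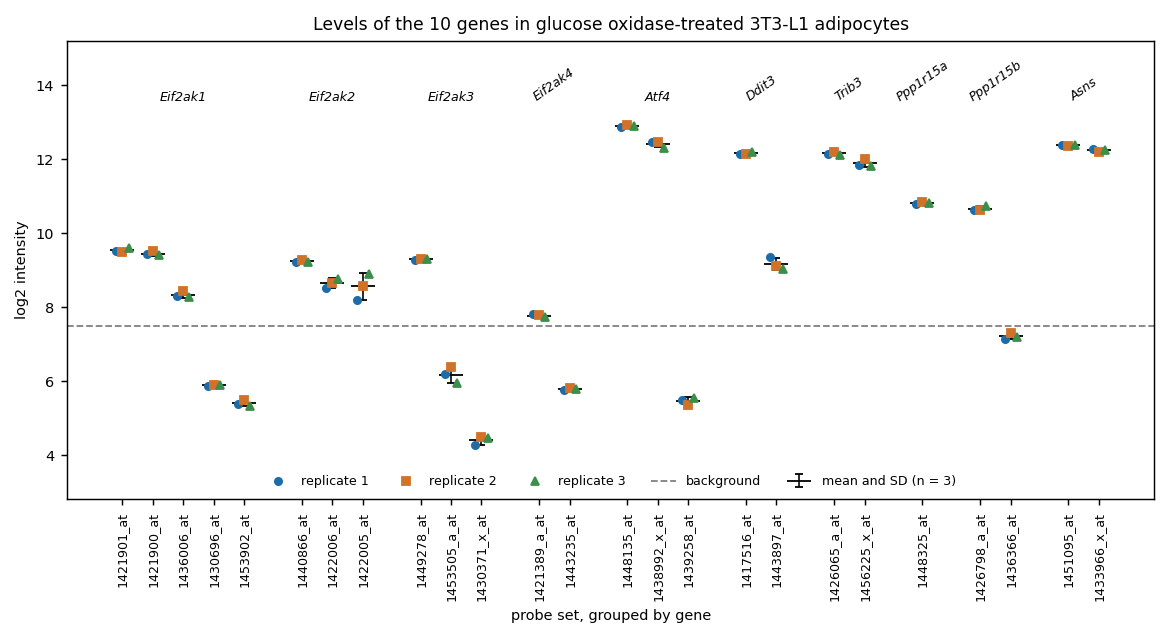
Log2 intensity (y axis) of the 25 probe sets (x axis) of the 10 genes after glucose oxidase, where each symbol is a replicate, black bars give mean and SD (n = 3) and the dashed line marks background, 7.50. Each gene has a probe set above the line in all 3 replicates, Eif2ak4 lies 0.27 above it, and probe sets should not be compared in height.

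Of the genes of eIF2alpha dephosphorylation, both were above background. Ppp1r15a encodes GADD34, the stress-inducible subunit that brings protein phosphatase 1 to eIF2alpha. Its only probe set, 1448325_at, gave 10.77, 10.83 and 10.81 in replicates 1, 2 and 3, or 10.80 ± 0.03 (SD, n = 3). Ppp1r15b encodes CReP, the constitutive counterpart. Probe set 1426798_a_at gave 10.62, 10.62 and 10.73, with replicate 3 the highest and a range of 0.12. Probe set 1436366_at, at 7.14, 7.29 and 7.20, was below background in all 3 arrays.

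Both transcription factor genes were above background, and their leading probe sets varied little between arrays. Atf4 encodes the factor whose translation rises when eIF2alpha is phosphorylated. Probe set 1448135_at had log2 intensities of 12.88, 12.93 and 12.89 in replicates 1, 2 and 3, a range of 0.05. Probe set 1438992_x_at gave 12.47, 12.45 and 12.31, with a range of 0.17 and replicate 3 the lowest, whereas replicate 1 was the lowest in 1448135_at. The suffix x marks probe sets with probes that can bind other transcripts. The third, 1439258_at, was at 5.47 ± 0.10 (SD, n = 3), below background.

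Ddit3 encodes CHOP, a C/EBP family factor linked to cell death in prolonged stress. Probe set 1417516_at gave 12.15, 12.15 and 12.20, a range of 0.05, with replicate 3 the highest. Probe set 1443897_at gave 9.34, 9.10 and 9.04, a range of 0.30, with replicate 3 the lowest, and 98.0% of probe sets above background had a smaller range. The difference in 1443897_at lay between replicate 1 and the other arrays, since its range was 0.06 without replicate 1. The probe sets of Ddit3 therefore placed replicates 1 and 3 in opposite order.

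The ATF4 targets Trib3 and Asns were above background with every probe set. Trib3 encodes a pseudokinase that is induced with DDIT3 and is known to restrain ATF4 and to bind AKT, a kinase of insulin signalling. Probe set 1426065_a_at gave 12.15, 12.20 and 12.12 in replicates 1, 2 and 3, and 1456225_x_at gave 11.84, 12.01 and 11.82. Both probe sets were highest in replicate 2 and lowest in replicate 3, with ranges of 0.08 and 0.18. Asns encodes asparagine synthetase, and its promoter holds the TGATGAAA match printed above. Probe set 1451095_at gave 12.38, 12.36 and 12.39, the narrowest range of the members above background at 0.03, and 1433966_x_at gave 12.27, 12.20 and 12.24. Both were lowest in replicate 2.

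**Figure D2:**
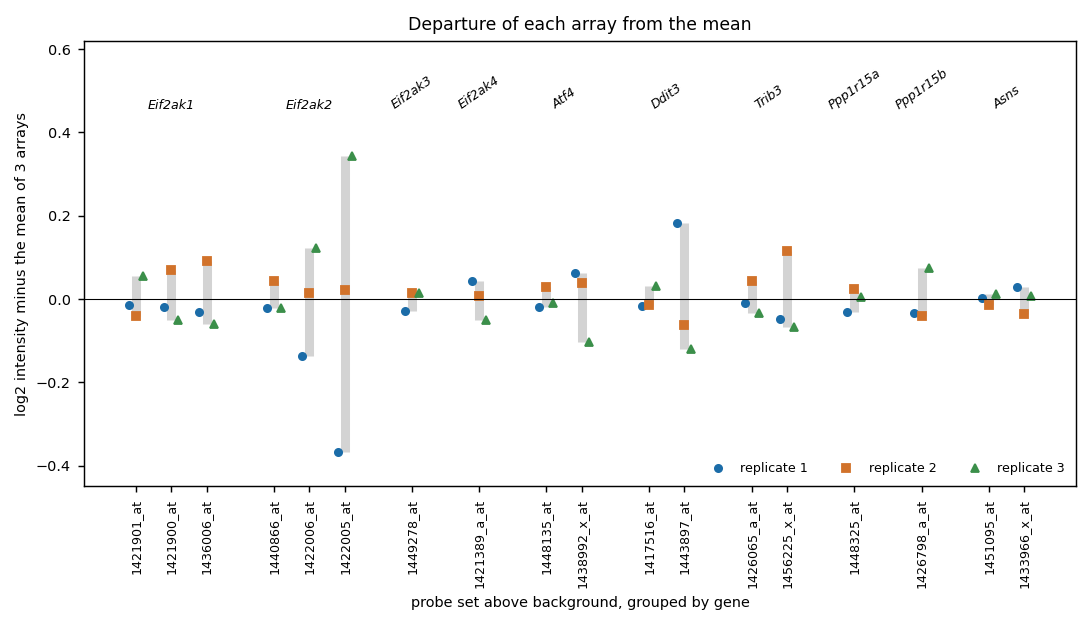
Log2 intensity of each array minus the mean of the 3 arrays (y axis) for the 18 member probe sets above background (x axis), with 1 symbol per replicate and a grey bar for the range. In Eif2ak2, 1422005_at and 1422006_at are lowest in replicate 1 and highest in replicate 3, with ranges of 0.71 and 0.26, while 1440866_at has a range of 0.07.

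Median spread between arrays was low for the leading probe sets of the 10 genes. Over all member probe sets above background it was near that of all probe sets. The leading probe sets had a median SD of 0.033 on the log2 scale, against 0.048 for the 10134 genes whose highest probe set was above background. None of the 10 had a range above 0.25, or 1.19-fold, against 3.01% of those genes. At so low a share, this count is no result about the members. Of the 18 member probe sets above background, 3 exceeded this range, against 4.53% of all probe sets above background. They were 1422005_at and 1422006_at of Eif2ak2 and 1443897_at of Ddit3, and none of them was its gene's highest probe set. The median SD of the 18 was 0.048, and that of all 16246 was 0.051.

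**Figure D3:**
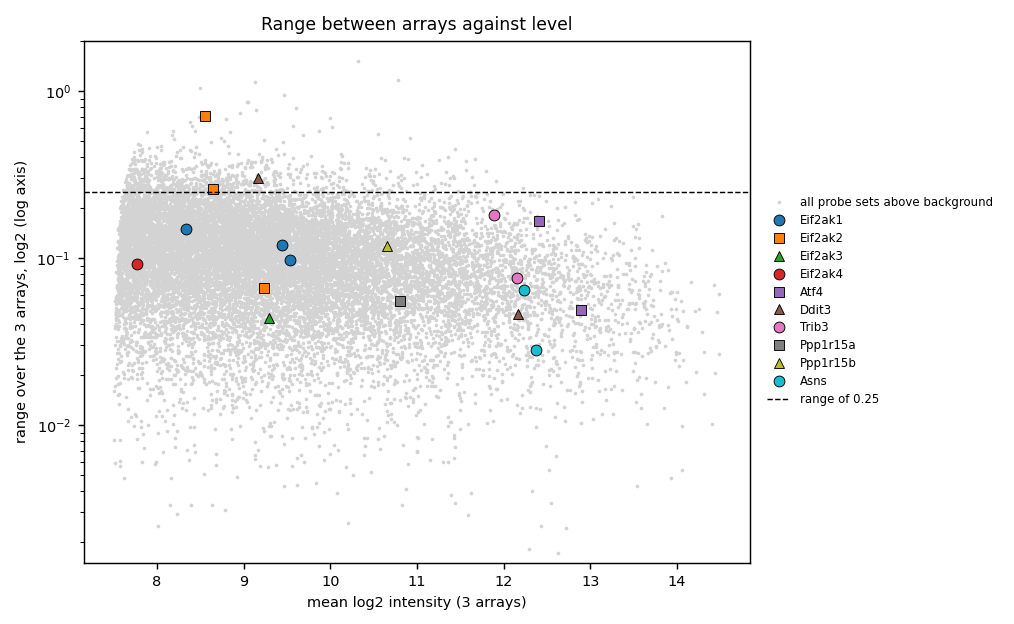
Range of log2 intensity over the 3 arrays (y axis, log scale) against the mean log2 intensity (x axis) for all 16246 probe sets above background (grey) and the 18 member probe sets (coloured by gene), with a dashed line at a range of 0.25. Eif2ak2 has 2 probe sets and Ddit3 has 1 above the line.

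The arrays were then compared pair by pair. In their highest probe sets, 6 of the 10 genes had more signal in replicate 2 than in replicate 1, against 61.6% of all genes above background. For replicate 3 over replicate 1 the count was 8 of 10, against 58.8%, and for replicate 3 over replicate 2 it was 5 of 10, against 50.8%. With the median of each gene's probe sets in place of the highest, the counts were 7, 3 and 3 of 10 in the same order. Among the members, the direction for replicate 3 over replicate 1 thus turned with the choice of probe set. The share over all genes in that setting is not given here. In the highest probe sets, the exceptions for replicate 3 over replicate 1 were Trib3 and Eif2ak4. The median difference between replicates 3 and 1 was 0.023 for the members and 0.020 for all genes above background. Each of these differences compares single arrays and has no replicate check.

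The genes around the members were read from 9 lists of related genes, in which 96 of 101 measured genes were above background, against 55.7% of all measured genes. Up to 4 genes with high signal are given from each list as examples, which is not an order of transcript abundance. All 9 measured genes of the list for eIF2 and its exchange factor eIF2B, through which phosphorylated eIF2alpha acts on translation, were above background. The list also holds Eif5 and Eif2a, which encode the separate initiation factors eIF5 and eIF2A and not subunits of eIF2 or eIF2B. Examples were Eif2s2 at a log2 intensity of 12.89, Eif5 at 12.38, Eif2s3x at 11.06 and Eif2b2 at 10.85, with SDs of 0.01 to 0.08 (n = 3). Eif2s1, the gene of eIF2alpha itself, had no probe set assigned to it alone and was not analysed here. The catalytic subunit genes of protein phosphatase 1, on which both PPP1R15 proteins act, included Ppp1ca at 12.87 ± 0.01 and Ppp1cc at 12.30 ± 0.03 (SD, n = 3). All 5 genes of this list were above background. Among them were the actin genes Actb at 14.11 ± 0.02 and Actg1 at 13.24 ± 0.03 (SD, n = 3), whose monomeric product assists the phosphatases. The only probe set of Actg1 has the suffix s, and the count was 4 without probe sets of suffix s or x.

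All 12 measured regulators of the kinases were above background. Among them the chaperone genes Hspa8, Hspa5, Hsp90aa1 and Hsp90b1 were at 13.42 ± 0.02, 13.13 ± 0.01, 12.94 ± 0.02 and 12.32 ± 0.06 (SD, n = 3). Hspa5 encodes BiP, which holds PERK inactive. All 11 partner transcription factor genes were above background, including Cebpa at 12.56 ± 0.03, Cebpb at 12.52 ± 0.05, Jun at 12.31 ± 0.10 and Atf5 at 11.66 ± 0.06 (SD, n = 3). Atf3, a factor that acts downstream of ATF4 and in other stress pathways, gave 10.71, 10.87 and 11.10 in replicates 1, 2 and 3, a range of 0.39.

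Of the ATF4 targets for amino acid supply, most were above background, with 3 exceptions in transport and synthesis. In amino acid and serine synthesis 12 of 13 were above background, including Phgdh at 12.38 ± 0.01, Psat1 at 12.13 ± 0.06, Mthfd2 at 11.16 ± 0.07 and Pck2 at 10.43 ± 0.02 (SD, n = 3), and Cbs, which makes cystathionine, was not, at 6.93 ± 0.03 (SD, n = 3). In transport 7 of 9 were above background, including Slc3a2 at 12.86 ± 0.04, Slc1a5 at 12.29 ± 0.02, Slc38a2 at 11.16 ± 0.02 and Slc7a5 at 10.34 ± 0.08 (SD, n = 3). The exceptions were Slc7a3, a cationic amino acid transporter gene, at 6.80 ± 0.03, and Slc7a11, whose product imports cystine, at 6.37 ± 0.01 (SD, n = 3). Slc3a2, which encodes the shared heavy chain of the SLC7A5 and SLC7A11 transporters, was thus above background where Slc7a11 was not. All 13 genes of tRNA charging and tRNA export were above background, including the synthetase genes Gars at 12.20, Aars at 12.16, Nars at 11.69 and Sars at 11.30, with SDs of 0.04 to 0.06 (n = 3).

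In the list of ATF4 targets for stress and signalling, 12 of 13 genes were above background. They included Eif4ebp1 at 13.49 ± 0.01, which encodes a repressor of cap-dependent translation, Sqstm1 at 13.02 ± 0.02, Map1lc3b at 12.90 ± 0.01 and Cdkn1a at 12.20 ± 0.04 (SD, n = 3). The exception was Fgf21, which encodes a stress hormone, at 6.73 ± 0.08 (SD, n = 3). In the IRE1 and ATF6 arms of the unfolded protein response, which run beside PERK, 15 of 16 were above background. Examples were Calr at 13.55 ± 0.03, Dnajb9 at 12.53 ± 0.04, Xbp1 at 12.24 ± 0.09 and Canx at 12.10 ± 0.04 (SD, n = 3), and Sdf2l1 was not, at 7.25 ± 0.08 (SD, n = 3). Of the 96 related genes above background, 4 had a range above 0.25 in their highest probe set, where 3.01% of all genes above background did. These were Atf3, Ddit4, Eif2a and Stc2, all 4 named after their values were seen.

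**Figure D4:**
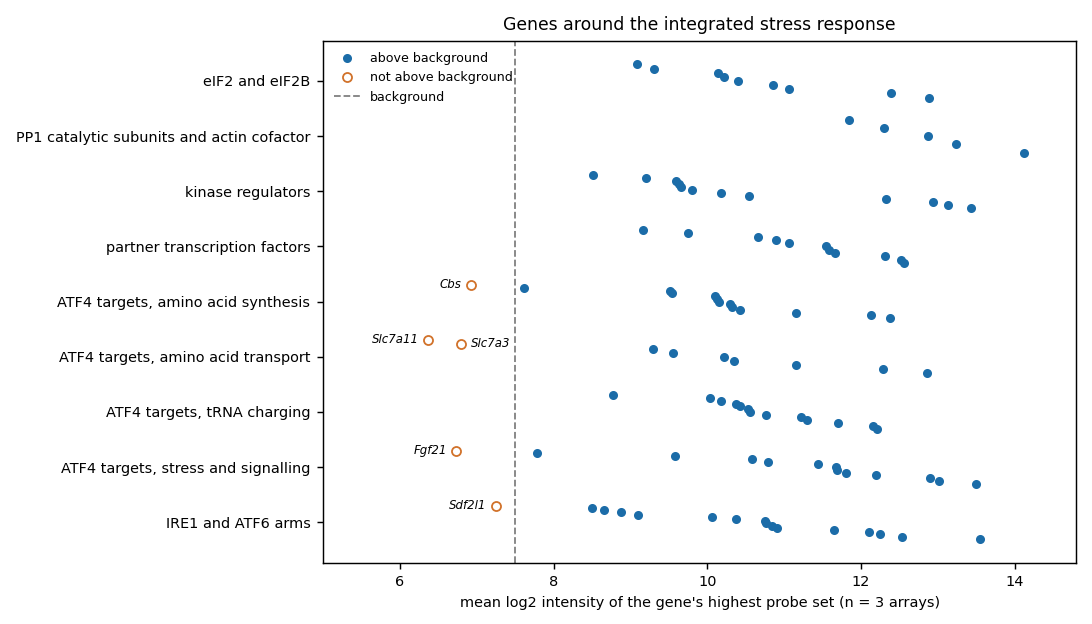
Mean log2 intensity (x axis, n = 3 arrays) of the highest probe set of each gene in 9 related lists (y axis), with filled circles for genes above background, open circles for genes that were not and a dashed line for background at 7.50. Cbs, Slc7a3, Slc7a11, Fgf21 and Sdf2l1 are the 5 genes of 101 that were not above background, and genes should not be compared in level.

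The element matched in Asns and Trib3 was also searched in the windows of the related ATF4 targets. Of 51 windows of 40 genes, 13 (25.5%) held TGATGNAA, each from a different gene, against 3.97% of all windows. The lists were drawn from genes known as ATF4 targets, so this share is no independent result. Chac1, Pck2 and Slc7a11 are shown as examples. Slc7a11 holds 2 matches in opposite orientation and was not above background, and Chac1 was at 11.67 ± 0.03 (SD, n = 3). Aars also holds 2 matches and was above background at 12.16, while Fgf21 holds a match and was not, at 6.73. Whether a match goes with the level of a gene was not tested. Chac1, which encodes an enzyme that degrades glutathione, was named after its values were seen.
Chac1, chr2:119351039-119351066, plus strand, match at -193 to -186: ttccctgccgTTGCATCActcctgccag
Pck2, chr14:55540153-55540180, plus strand, match at -103 to -96: gccttcaaagTTACATCAgtatcttaca
Slc7a11, chr3:50443662-50443689, minus strand, match at -66 to -59: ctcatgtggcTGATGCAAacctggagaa
Slc7a11, chr3:50443643-50443670, minus strand, match at -47 to -40: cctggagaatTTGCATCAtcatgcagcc
The capitals of Trib3 and Pck2 are the same 8 letters, TTACATCA, while Chac1 and the second Slc7a11 match share TTGCATCA.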

How the data were processed

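RNA of 3 glucose oxidase samples was hybridised to Affymetrix mouse4302 arrays. The deposited values are intensities of 45101 probe sets, which the authors background-corrected and normalized by RMA in affyPLM (version not given in the sources used here). The scale is linear (array medians 127.6, 126.9 and 126.9), and log2 was taken of each value. Any scaling after RMA, and which arrays were normalized together, is unknown, and precision is limited by there being 3 arrays.

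Gene names came from GEO's platform annotation. Of the probe sets, 34958 had 1 gene, 932 several and 9211 none; only the first kind was used, and 34754 matched RefSeq genes (GRCm38.p6), used for names and promoter windows, with 0 symbols changed. With 1 group, no test was possible: levels, SDs and ranges were computed in Python 3.11.15 (pandas 2.3.3, numpy 2.4.6, matplotlib 3.10.9), and the functions were tested on simulated data. All members were named, and of each related list the genes not above background and at most 4 with the highest level, as examples. Members and lists were chosen with earlier results of these data known. Alternatives were other backgrounds, the per-gene median over probe sets, omitting those with the suffix s or x, centring each array, and leaving out each array. A planned comparison of member proteins was not run, as protein sequences were not used here.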

Additional observations from a re-analysis of the deposited data

How the results depend on the processing

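No paired analysis was possible because the arrays analysed here hold only 1 group. The count of members above background was 10 in the main setting and 8 to 10 under the alternatives: 9 at the 99th percentile and against defensin and keratin-associated genes (without Eif2ak4), and 8 with the per-gene median over probe sets (without Eif2ak3 and Eif2ak4). With that median, 9 of the 10 levels moved by more than 1 SD and 5 by more than 1.5-fold, such as Eif2ak3 at 6.17 in place of 9.29 and Ddit3 at 10.66 in place of 12.17. In the main setting, 0 members had a range above 0.25. Taking each gene's median instead, 2 members passed this range, Eif2ak2 and Eif2ak3. For Eif2ak3 that median is probe set 1453505_a_at, with a mean of 6.17 and above background in 0 of the 3 arrays. Its range of 0.44 is therefore no evidence that the transcript varied. When any probe set above background could count, 2 members passed, Eif2ak2 and Ddit3, a setting chosen after seeing the data. The matching shares of all genes are not given here for these alternatives. With the median of probe sets, 3 members were higher in replicate 3 than in replicate 1 in place of 8, and 3 were higher in replicate 3 than in replicate 2 in place of 5. The median SD of the member probe sets above background, 0.048, was between 0.0280 (without replicate 2) and 0.0492 (without replicate 1) on leaving out each array. For the related genes, the count above background was 96 in the main setting and 90 to 96 under the alternatives. The lowest was with the per-gene median, where 9 kinase regulators were above background in place of 12. The response element was in 0 member windows as TGATGCAA, against 0.895% of all windows. As TGATGNAA before the start site alone it was in 1 member window, that of Asns, against 3.45% of all windows. The cause of these changes was not tested, beyond what each setting removes by construction. Signal near background limits the statement on Eif2ak4.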

Other observations

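Since Eif2ak2 is a known interferon-induced gene and 2 of its probe sets were lowest in replicate 1, other interferon-stimulated genes were read in the same arrays. The list was chosen after the values were seen. All 14 measured genes were above background, against 55.7% of all measured genes. Of the 14, 11 were higher in replicate 3 than in replicate 1, against 58.8% of all genes above background. The median difference was 0.06 on the log2 scale. None had a range above 0.25 in its highest probe set, against 3.01% of all genes above background. At so low a share, this count is no result about these genes. The widest range was that of Rsad2, which encodes the antiviral protein viperin, at 11.35, 11.50 and 11.56 in replicates 1, 2 and 3. By the same measure Eif2ak2 had a range of 0.07 in 1440866_at, against a median of 0.08 for the list; the wider ranges of its other probe sets were not set against other probe sets of these genes. Whether the spread of Eif2ak2 and that of these genes are related was not tested.

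The difference between replicates 3 and 1 was also read in each of the 9 lists of related genes, over the genes above background. It was above 0 in 6 of 9 genes of the eIF2 and eIF2B list and 1 of 5 of the phosphatase and actin list. The same held for 10 of 12 kinase regulators, 10 of 11 partner transcription factors and 10 of 15 of the IRE1 and ATF6 arms. Among ATF4 targets it was above 0 in 10 of 12 for amino acid synthesis, 5 of 7 for transport, 11 of 13 for tRNA charging and 10 of 12 for stress and signalling. The share over all genes above background was 58.8%. Each value compares single arrays, and its cause was not tested.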
